A study of Mus musculus with 4 samples.

Results

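The transcripts examined were those of 31 genes of cholesterol synthesis, uptake, efflux and storage, taken by symbol from 24441 gene symbols measured in mouse Langerhans cells, which patrol the epidermis and present antigen. Of the 31 genes, 29 averaged 1 FPKM or more across all 4 libraries and were tested for change, among 10910 such genes in all. FPKM is the number of sequenced fragments scaled by transcript length and by the total mapped, so that levels can be compared between genes. The cells were sorted from epidermal suspensions of mice at 4 weeks of age, and RNA was sequenced in 2 libraries per group. The first group, called Tfam cKO, came from CD11cCreTfamfl/fl mice, in which Cre expressed from the CD11c promoter targets floxed alleles of Tfam. Its product packages mitochondrial DNA and starts its transcription. The second group came from mice labelled WT, and whether these carried Cre or floxed alleles is not given. Both groups share the tissue, the sort and the age. Which animals went into a library is not stated either, so p-values measure the spread between libraries. Part of it may be technical, and it can also hold differences of animal and sex. Y-linked transcripts, given below, differed between the libraries of each group.

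Cells make cholesterol from acetyl-CoA through the mevalonate pathway, which ends at squalene, and then close and trim the sterol rings in the endoplasmic reticulum. The transcription factor SREBP2 switches on nearly all of these enzymes when membrane sterol is low, and the proteins SCAP and INSIG hold it back when sterol is plentiful. When sterol accumulates, oxysterols activate the nuclear receptors LXR-alpha and LXR-beta, which raise ABCA1, ABCG1 and apolipoprotein E for export and MYLIP, a ubiquitin ligase that removes lipoprotein receptors. Synthesis and efflux genes therefore report on opposite states of the cell. In the epidermis keratinocytes also make cholesterol, for the lipid barrier of the skin.

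The promoters of the synthesis enzymes carried a shared element, which is shown here because the enzymes are compared as 1 group below. SREBPs act together with the factor NF-Y, which binds the letters CCAAT on either strand (ATTGG when read on the other). In RefSeq promoters of build GRCm38.p6, covering 250 bases before to 50 after each transcript start, CCAAT was found on either strand for 14 of the 14 synthesis enzymes with an entry, among 26 of the 31 genes that had one. The share was 42.6% of the 8588 tested genes with a promoter entry, and 37.4% of all 32851 promoters. At least 2 such boxes were present for 9 of the 14 enzymes. Of the 3 efflux genes with an entry, 1 held the box, Mylip. Among all members with an entry, 21 of 26 held it. These included Insig1, Insig2, Srebf1, Srebf2, Lpcat3 and Soat1, so the box was not particular to the synthesis enzymes. The Sp1 box GGGCGG, whose end letters can overlap those of ATTGG, was found on either strand for 13 of the 14 enzymes and for 70.8% of tested genes. The median base composition was similar, at 61.3% G and C in the enzymes' promoters and 61.0% in those of tested genes. Genes with several listed starts had more than 1 chance of a match. In the lines below, each with the 120 bases before a transcript start, 5′ to 3′ on the gene's strand, capitals mark CCAAT or ATTGG. Mvk, with the most boxes, is followed by Msmo1, Sc5d and Tm7sf2, enzymes that were higher in Tfam cKO without overlap between groups. Nsdhl, an enzyme with 4 boxes, also had no overlap but was lower in Tfam cKO, and its promoter is not printed. The last line is the efflux gene Abca1, which has no box.
Mvk, chr5:114444149-114444268, plus strand: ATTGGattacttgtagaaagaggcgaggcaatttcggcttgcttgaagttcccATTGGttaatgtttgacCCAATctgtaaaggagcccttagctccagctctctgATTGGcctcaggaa
Msmo1, chr8:64733579-64733698, minus strand: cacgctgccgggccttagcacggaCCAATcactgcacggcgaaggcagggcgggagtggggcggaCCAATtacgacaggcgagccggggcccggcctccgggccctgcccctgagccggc
Sc5d, chr9:42264301-42264420, minus strand: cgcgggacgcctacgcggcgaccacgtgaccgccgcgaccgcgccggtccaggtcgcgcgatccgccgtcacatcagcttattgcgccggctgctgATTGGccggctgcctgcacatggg
Tm7sf2, chr19:6067851-6067970, minus strand: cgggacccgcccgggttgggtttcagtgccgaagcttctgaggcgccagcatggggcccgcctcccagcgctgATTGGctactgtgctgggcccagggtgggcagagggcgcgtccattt
Abca1, chr4:53159896-53160015, minus strand: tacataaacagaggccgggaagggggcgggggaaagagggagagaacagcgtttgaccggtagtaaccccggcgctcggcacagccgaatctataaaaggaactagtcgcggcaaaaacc

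A strict form of the SREBP element, TCACNCCAC, was found on either strand in 1.24% of all promoters and, among the 26 genes, only in that of Hmgcs1, the gene for the cytosolic HMG-CoA synthase of the pathway. It is shown with its flanks, in capitals, because this is the one member with no measured level.
Hmgcs1, chr13:119690189-119690247, plus strand: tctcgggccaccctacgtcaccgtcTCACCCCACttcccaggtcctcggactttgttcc
The LXR half-site AGGTCA was found for 3 of the 26 genes, Dhcr7, Hmgcs1 and Insig1, and for 14.4% of tested genes. Its direct repeat with a spacer of 4 bases, was found in these exact letters for 0 of the 26 and in 0.0152% of all promoters. LXR also binds repeats with other letters, which were not searched. A match in letters is no evidence of binding, and no match covers this window only.

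Some properties of the libraries bear on what follows. Tfam itself was listed at 1.65 and 1.53 FPKM in Tfam cKO, against 3.17 and 1.61 FPKM in WT. WT 2 thus stood beside both Tfam cKO libraries and only WT 1 was apart (log2 fold change −0.35, SE 0.25, limma adjusted p = 0.90; −0.013 without WT 1). A value for the whole gene can include reads outside the deleted part, so it does not check the deletion. The summed FPKM of the 7 Langerhans cell markers was 14643 and 11336 in Tfam cKO and 12088 and 12566 in WT, with Cd207, which encodes langerin, at 1374 to 2098. Keratinocyte RNA was abundant: 17 of 17 listed markers reached a mean of 1 FPKM, and their sum was 16574 and 15610 in Tfam cKO and 16714 and 11666 in WT. Krt14, a basal keratin, reached 3587 and 3265 FPKM in Tfam cKO and 3538 and 2362 FPKM in WT. Krt10, from the same list, varied in another order, with 232 and 671 FPKM in Tfam cKO and 361 and 547 FPKM in WT. The keratinocyte markers thus did not vary together between libraries. Macrophage markers summed to 169 and 113 FPKM in Tfam cKO and 73.8 and 61.5 FPKM in WT, and 4 of the 10 averaged 1 FPKM or more. Of the 10, 4 were higher in both Tfam cKO libraries, C1qa among them, and Cd163, Folr2 and Fcgr1 were listed at 0. Over all tested genes, 25.4% were higher in both Tfam cKO libraries. In the keratinocyte list 4 of 17 were higher and 1 lower, and in the Langerhans list 1 of 7 was higher and 2 lower. T cell markers, Cd3e among them, summed to 180 to 281 FPKM, sebocyte markers to 19.0 to 58.4, melanocyte markers to 1.51 to 5.40 and fibroblast markers, with Col1a1, to at most 1.07. Transcripts of 4 Y-linked genes summed to 0 and 21.7 FPKM in Tfam cKO and 0 and 58.8 FPKM in WT, while Xist, the RNA of the inactive X chromosome, had 39.0 and 45.6 FPKM in Tfam cKO and 64.6 and 5.38 FPKM in WT. In RNA of a mixed suspension, fewer cells of a type and less RNA per cell cannot be told apart, and the part of these other cells in the results below was not tested.

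The 16 synthesis enzymes with a measured level were expressed in every library, while Hmgcs1 had no measured level. Among the enzymes up to squalene epoxide, Pmvk, which encodes phosphomevalonate kinase, had the highest level, at 96.7 and 82.0 FPKM in Tfam cKO and 90.8 and 102 FPKM in WT. Idi1, the isopentenyl diphosphate isomerase, had 40.6 and 35.5 FPKM in Tfam cKO and 38.1 and 35.7 FPKM in WT. The groups overlapped for both genes. Fdps, which builds farnesyl diphosphate, had 29.7 and 37.9 FPKM in Tfam cKO and 30.5 and 31.9 FPKM in WT. Sqle, the squalene epoxidase that commits squalene to sterols, had 20.2 and 21.3 FPKM in Tfam cKO, against 16.7 and 21.2 FPKM in WT. Mvk, the mevalonate kinase, and Mvd, the mevalonate diphosphate decarboxylase, were lower in level, at 5.51 to 8.29 and 2.92 to 4.41 FPKM. For Fdft1, the squalene synthase gene, the groups did not overlap, with 10.8 and 13.1 FPKM in Tfam cKO and 8.89 and 10.6 FPKM in WT. That gap between the nearest libraries was small beside the spread within each group (log2 fold change 0.27, SE 0.18, limma adjusted p = 0.89).

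Hmgcs1 was listed at 0 in all 4 libraries, and this value says nothing of its expression. Both of its loci in the tables lie on unplaced chromosome 13 sequence. All 150 rows of the tables on such unplaced sequence, for 92 symbols, were at 0 in every library. Hmgcs1 was the one member listed only there.

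Of the 9 enzymes from lanosterol formation to cholesterol, Msmo1, a sterol demethylase, and Cyp51, the lanosterol demethylase, had the highest levels. Msmo1 had 53.8 and 53.9 FPKM in Tfam cKO, against 37.3 and 53.4 FPKM in WT. WT 1 stood apart and WT 2 lay within 1 FPKM of both Tfam cKO libraries (log2 fold change 0.26, SE 0.21, limma adjusted p = 0.91; 0.013 without WT 1). Cyp51 had 39.1 and 42.2 FPKM in Tfam cKO and 31.5 and 41.0 FPKM in WT, so WT 1 was again the lowest library, while WT 2 lay between the Tfam cKO libraries. Sc5d, the lathosterol desaturase, had the largest change among the 29 genes, with 26.6 and 24.9 FPKM in Tfam cKO and 18.7 and 22.2 FPKM in WT. Its libraries were separate, but the change did not pass the test (log2 fold change 0.32, SE 0.17, unadjusted p = 0.095, limma adjusted p = 0.86). Beside it, Tm7sf2, a sterol reductase gene, also had separate groups, at 4.13 and 3.63 FPKM in Tfam cKO and 2.75 and 3.27 FPKM in WT (log2 fold change 0.28, SE 0.18, limma adjusted p = 0.88). The Tm7sf2 values rest on only 44.1 to 88.4 effective fragments per library, the fewest among the 29 genes. Nsdhl, a sterol dehydrogenase encoded on the X chromosome, was the one member with both Tfam cKO libraries lower, at 4.26 and 5.26 FPKM against 5.77 and 5.42 FPKM in WT (log2 fold change −0.20, limma adjusted p = 0.92). Ebp, an isomerase also on the X chromosome, varied least of the 29 genes, from 13.5 to 14.5 FPKM. Lss, the lanosterol synthase, Hsd17b7, a sterol ketone reductase, and Dhcr7, the last reductase of the pathway, lay at 1.75 to 2.64, 5.04 to 6.08 and 7.49 to 8.85 FPKM with overlapping groups.

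**Figure D1:**
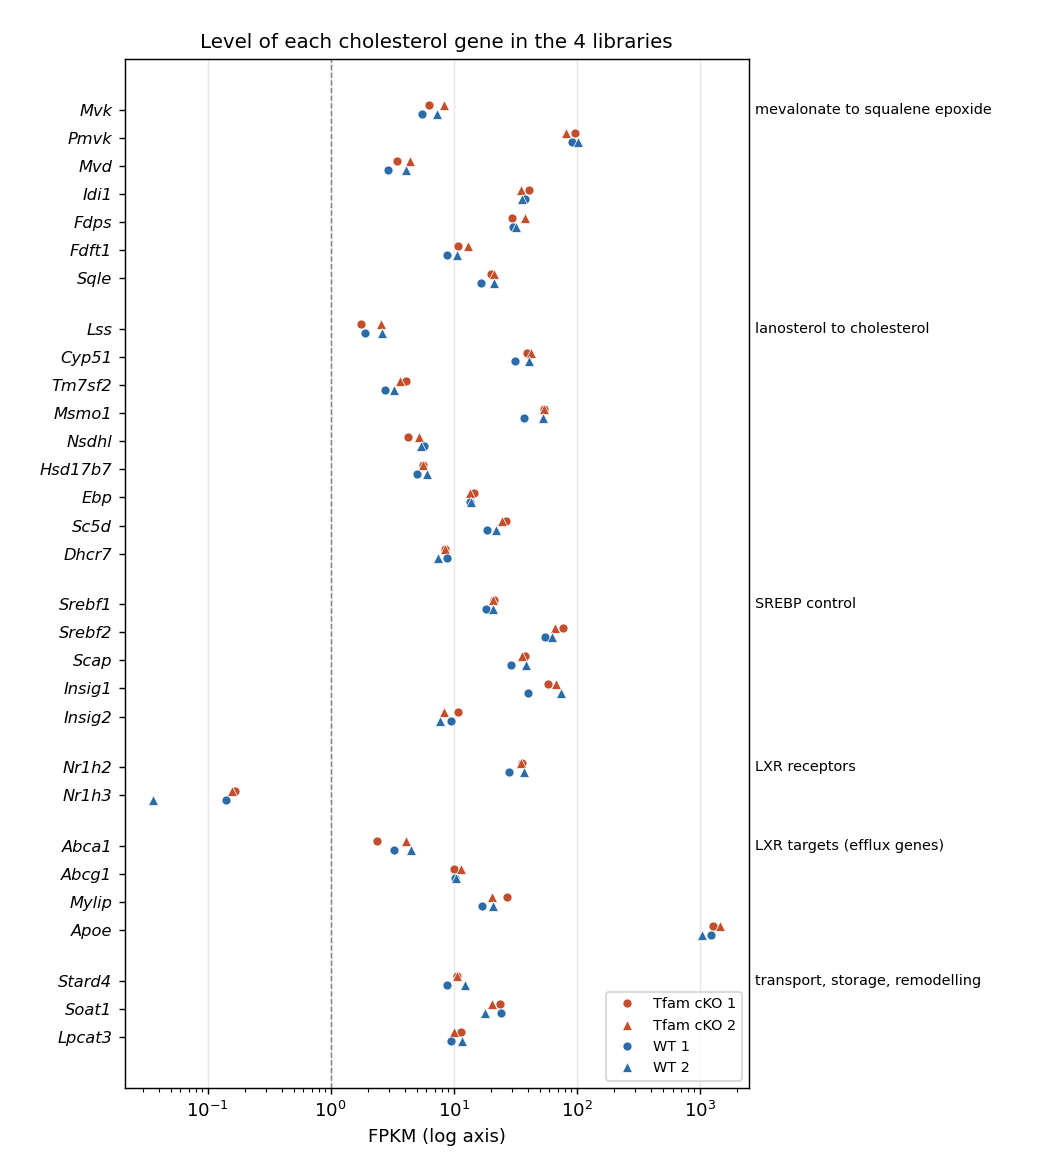
FPKM of each member on a log axis, 1 point per library, Tfam cKO in red above WT in blue, with circles for library 1 and triangles for library 2. The dashed line marks the 1 FPKM needed for testing. Hmgcs1, listed at 0, is not drawn, Nr1h3 lies below the line, and in most rows the blue circle of WT 1 is the leftmost point.

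The SREBP system was present at substantial level in both groups. Srebf2, the gene of the main regulator of cholesterol synthesis, had 76.6 and 67.1 FPKM in Tfam cKO, against 55.1 and 63.2 FPKM in WT. The groups did not overlap, and the change did not pass (log2 fold change 0.28, SE 0.18, limma adjusted p = 0.89). Srebf1, whose products act mainly on fatty acid genes, had 21.3 and 20.8 FPKM in Tfam cKO and 18.2 and 20.8 FPKM in WT, where the nearest libraries were almost equal. Scap, the sterol sensor that escorts SREBPs, had 37.7 and 35.8 FPKM in Tfam cKO and 29.2 and 38.5 FPKM in WT. Insig1, which is itself an SREBP target and retains the complex in the endoplasmic reticulum, had 58.5 and 67.6 FPKM in Tfam cKO, against 39.8 and 74.8 FPKM in WT. The WT libraries of Insig1 enclosed those of Tfam cKO, and Cufflinks' 95% intervals of 37.6 to 42.0 in WT 1 and 72.2 to 77.4 in WT 2 were far apart, so that this spread is more than counting error. Its log2 fold change was 0.20 (95% interval −0.44 to 0.84) and −0.25 without WT 1. Insig2, the other retention protein, had 7.72 to 10.9 FPKM with overlapping groups.

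Of the LXR receptors, the transcripts came almost wholly from Nr1h2, which encodes LXR-beta. It had 36.1 and 34.9 FPKM in Tfam cKO and 28.2 and 37.2 FPKM in WT. Nr1h3, which encodes LXR-alpha, was near the limit of detection at 0.168 and 0.159 FPKM in Tfam cKO and 0.142 and 0.0361 FPKM in WT, from at most 3.18 effective fragments, and was not tested.

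Among the LXR targets of the efflux group, Apoe stood far above the rest. It had 1280 and 1471 FPKM in Tfam cKO, against 1238 and 1040 FPKM in WT, and ranked between 30 and 39 of the 10910 tested genes in every library. Its groups did not overlap, and the change did not pass (log2 fold change 0.27, SE 0.23, limma adjusted p = 0.92). The Apoe change was 0.082 after quantile normalization, 0.15 after rescaling to equal totals, and 0.15 to 0.40 with a library left out. The macrophage marker sum given above was also higher in both Tfam cKO libraries, but it was highest in Tfam cKO 1 and Apoe in Tfam cKO 2. The keratinocyte sum was lowest in WT 2, as Apoe was, but highest in WT 1. The part of these cells in the Apoe level was not tested. Mylip had 26.9 and 20.4 FPKM in Tfam cKO and 17.04 and 20.8 FPKM in WT, a difference that was 0.63 on the log2 scale between the libraries numbered 1 and −0.02 between those numbered 2. Abcg1, a sterol exporter, was nearly constant at 10.1 and 11.5 FPKM in Tfam cKO and 10.2 and 10.4 FPKM in WT. Abca1, the exporter that loads apolipoproteins, was low, at 2.37 and 4.11 FPKM in Tfam cKO and 3.27 and 4.53 FPKM in WT. Its libraries numbered 2 were higher than those numbered 1 in both groups, and its largest level was 1.91 times its smallest, the widest ratio among the 29 genes. Log2 fold changes were 0.30 for Mylip, 0.27 for Apoe, 0.06 for Abcg1 and −0.23 for Abca1, none passed the limma test, their 95% intervals overlapped, and differences among the 4 genes were not tested. Abca1 was at 0.07 without Tfam cKO 1, and Abcg1 at −0.06 after rescaling the libraries to equal totals.

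The remaining genes handle sterol inside the cell. Stard4, a carrier of cholesterol between membranes, had 10.7 and 10.6 FPKM in Tfam cKO and 8.77 and 12.3 FPKM in WT. Soat1, which esterifies cholesterol for storage, had 23.7 and 20.3 FPKM in Tfam cKO and 24.3 and 17.9 FPKM in WT. Lpcat3, an LXR target that remodels phospholipids, had 11.5 and 10.04 FPKM in Tfam cKO and 9.48 and 11.7 FPKM in WT. The WT libraries enclosed both Tfam cKO libraries for these 3 genes.

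Over the whole set, no change with Tfam cKO was detected. Of the 29 tested genes, 0 were called higher and 0 lower at a limma adjusted p below 0.05, and 0 had an unadjusted p below 0.05. The background was 0.0183% of all tested genes called higher (2 genes) and 0% called lower, with 547 higher and 130 lower at an unadjusted p below 0.05. No member was called under any of the 15 alternative settings. The smallest limma adjusted p among members was 0.86, and log2 fold changes ran from −0.23 to 0.32. The widest 95% limits over the 29 genes were 0.582-fold and 1.79-fold on the scale of FPKM + 1, so on that scale a doubling or a halving lies outside the interval of each tested gene. For low genes such as Abca1, a halving in FPKM is a smaller change on that scale, so there this limit does not carry over to FPKM. The groups were separate, with Tfam cKO higher, for 7 of 29 genes, and with Tfam cKO lower for 1, beside a background of 25.4% higher and 9.75% lower over all tested genes. After quantile normalization these were 1 higher and 1 lower (background 16.3% and 17.3%), and after rescaling to equal totals 2 and 3 (14.3% and 19.8%). With 3 libraries separation is easier. The counts were 13 higher and 3 lower without Tfam cKO 1 (background 40.7% and 19.0%), 11 and 5 without Tfam cKO 2 (41.9% and 23.0%), 10 and 10 without WT 1 (55.8% and 20.7%), and 19 and 3 without WT 2 (37.3% and 32.0%).

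**Figure D2:**
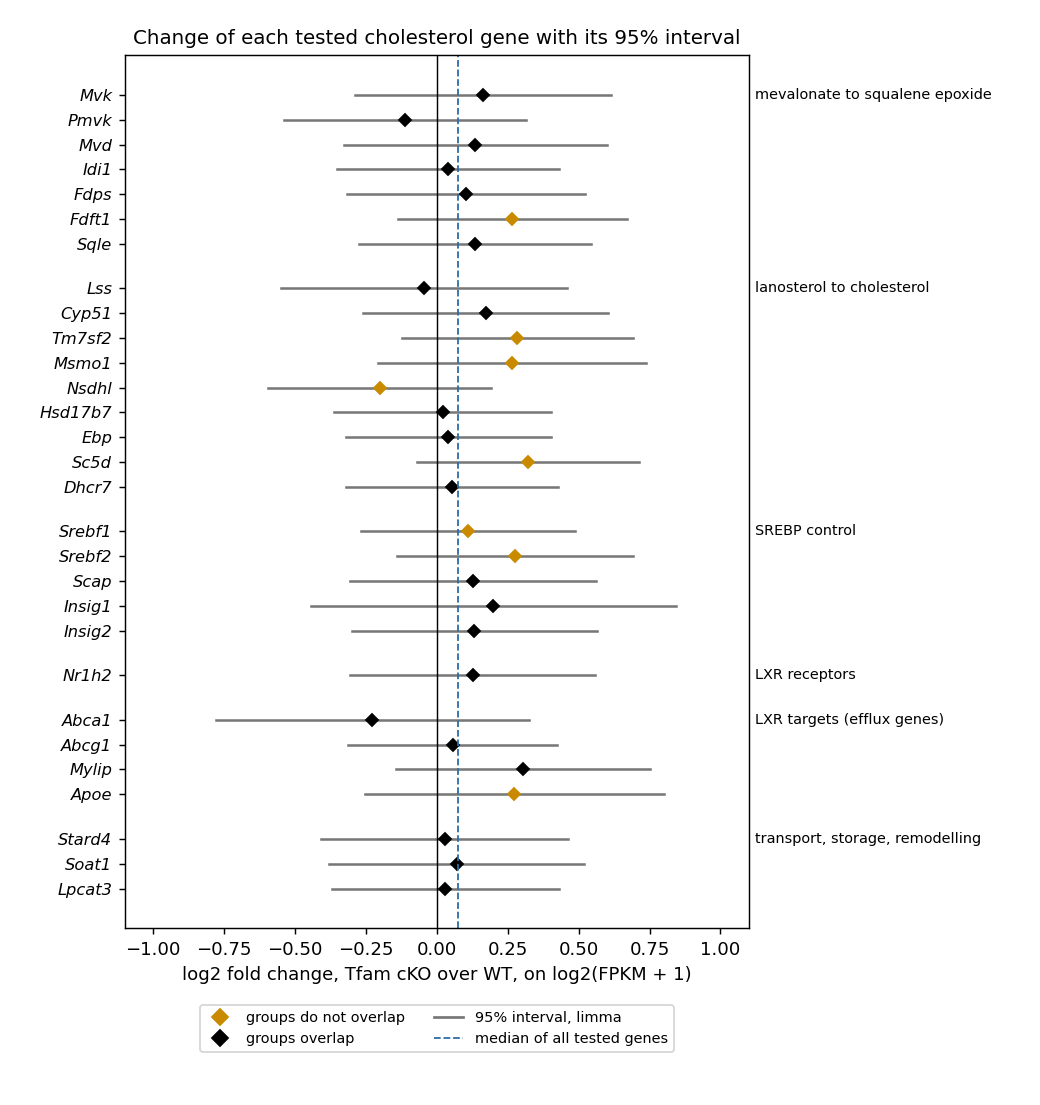
Log2 fold change of Tfam cKO over WT for the 29 tested members with limma's 95% interval, with the median of all tested genes as a dashed line. All 29 intervals include 0, and the 8 members whose libraries do not overlap are in gold.

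The tilt of the members to higher values was smaller under other scalings of the libraries, and its cause was not tested. As deposited, 25 of 29 members had a positive log2 fold change, against 65.2% of all tested genes. After rescaling each library to the same total, a step that shifts the all-gene median by −0.11, these were 15 of 29 and 43.2%. After quantile normalization they were 16 of 29 and 48.2%. The members' share was 51.7% and 55.2% in these 2 settings, above that of all genes in both. Rescaling moved the members' median from 0.13 to 0.0069, a shift that turns many small values negative whatever their origin. The 16 tested synthesis enzymes had a median of 0.12, which was 0.045 above the median of all genes as deposited, 0.036 above it after rescaling and 0.017 above it after quantile normalization.

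The balance between synthesis and efflux genes differed between groups by less than the spread of the libraries with all 4 efflux genes counted. A version without Apoe, picked after its values were seen, is given last and carries no test. In each library, the mean log2(FPKM + 1) of the 4 efflux genes was subtracted from that of the 16 synthesis enzymes, a difference in which the scaling of a library nearly cancels. It was −1.22 and −1.28 in Tfam cKO, against −1.29 and −1.21 in WT. The group means were −1.25 ± 0.047 and −1.25 ± 0.059 (SD, n = 2 each), and they differed by 0.001, with the order of the libraries crossed between numbers. The synthesis mean was 3.87 and 3.95 in Tfam cKO and 3.71 and 3.91 in WT, and the efflux mean was 5.09 and 5.23 in Tfam cKO and 5.01 and 5.11 in WT. The group means of both differed by 0.10, against pooled SDs of 0.10 and 0.091, and the mean of all tested genes differed by 0.080. WT 1 was lowest on both sides. Because Apoe dominates the efflux mean, the difference was also taken without it, a choice made after its values were seen. It was then 0.53 and 0.48 in Tfam cKO and 0.47 and 0.43 in WT, a difference of 0.059 between groups against a pooled SD of 0.030. The groups did not overlap, but the nearest libraries were close, at 0.482 in Tfam cKO 2 and 0.466 in WT 1. An exact two-sided permutation test of such a separation cannot go below p = 0.333. With genes under 5 FPKM left out, which drops Abca1 and the synthesis enzymes Mvd, Lss and Tm7sf2, the difference between groups was −0.11. The synthesis median was 0.12 and the efflux median 0.16, against 0.07 for all genes, and without WT 1 they were −0.00054 and 0.10, against 0.13 for all genes.

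**Figure D3:**
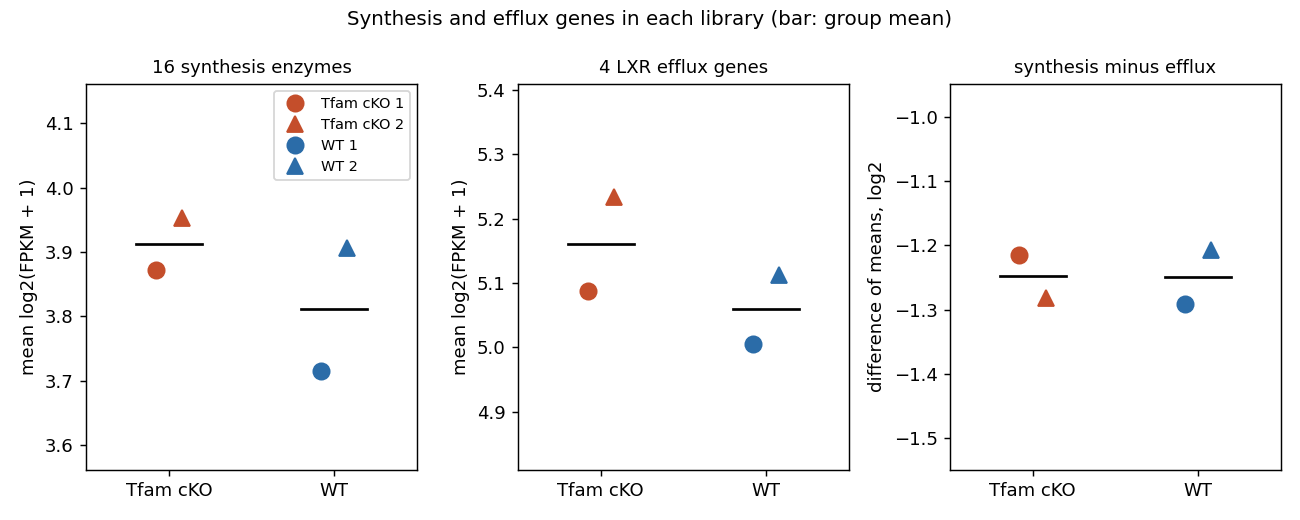
Mean log2(FPKM + 1) of the 16 synthesis enzymes, of the 4 efflux genes, and their difference, 1 point per library with the group mean as a bar. All 3 panels span the same range on the log2 scale. The differences of −1.22 and −1.28 in Tfam cKO and −1.29 and −1.21 in WT overlap.

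The larger pattern among members lay between libraries, not between groups. WT 1 had the lowest value of the 4 libraries for 18 of the 29 genes, including 10 of the 16 synthesis enzymes, while it was lowest for 21.6% of all tested genes. WT 2 was lowest for 46.0% of all tested genes but for only 4 of the 29 members, and highest for 9. Relative to the mean of all tested genes, the synthesis mean was 0.39 and 0.46 log2 units higher in Tfam cKO and 0.26 and 0.54 higher in WT, so the WT libraries held both the lowest and the highest value. The change of a member was smaller than the larger of its within-group differences for 24 of 29 genes (82.8%). This was near the 76.6% of all tested genes and so is not particular to the members. Between the libraries numbered 1 the median difference of the members was 0.19, and between those numbered 2 it was 0.005, against 0.018 and 0.13 for all genes.

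Genes of neighbouring pathways were read from 5 further lists, and 0 of their 12, 14, 16, 12 and 15 tested genes were called in either direction by limma. At an unadjusted limma p below 0.05, 2 were higher, Aacs and Ch25h, and 0 lower. Among all 10910 tested genes, 547 were higher and 130 lower at that threshold, so these 2 do not stand out from the background. SREBP1 also drives fatty acid synthesis, and the 12 tested genes of that list had a median log2 fold change of 0.10. Acly, which supplies cytosolic acetyl-CoA, had 25.2 and 24.1 FPKM in Tfam cKO and 23.2 and 23.5 FPKM in WT, a log2 change of 0.07. Scd1, the stearoyl-CoA desaturase, had 14.3 and 14.8 FPKM in Tfam cKO, against 19.9 and 15.6 FPKM in WT (limma adjusted p = 0.90). Of 14 genes of acetoacetate activation and isoprenoid use (median 0.06), Aacs, the acetoacetyl-CoA synthetase that feeds the pathway, had the smallest p. It had 9.18 and 9.28 FPKM in Tfam cKO, against 6.34 and 6.74 FPKM in WT, a gap wider than the spread within either group (log2 fold change 0.44, SE 0.16, unadjusted p = 0.021, limma adjusted p = 0.68). Nus1, of dolichol synthesis, had 12.4 and 11.5 FPKM in Tfam cKO and 11.4 and 8.61 FPKM in WT.

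The 16 genes of sterol sensing and SREBP processing had a median of 0.04. Mbtps1, a protease that cleaves SREBPs, had 17.2 and 17.02 FPKM in Tfam cKO and 18.9 and 19.1 FPKM in WT (limma adjusted p = 0.95). For uptake and lysosomal egress, 12 of 17 genes were tested (median 0.13). The scavenger receptors Cd36, Msr1 and Olr1, whose products take up modified lipoproteins in macrophages, were below 1 FPKM in every library. Lrpap1, a chaperone of lipoprotein receptors, had 17.1 and 17.7 FPKM in Tfam cKO and 13.9 and 14.0 FPKM in WT, and Stard3, a late endosomal sterol carrier, had 9.69 and 10.05 FPKM in Tfam cKO and 7.76 and 8.08 FPKM in WT. Both had separate groups and did not pass (limma adjusted p = 0.86 each).

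The 15 tested genes of further efflux and oxysterol steps had a median of −0.02, yet held the largest change of the 5 lists. Ch25h, the enzyme that makes 25-hydroxycholesterol, an oxysterol that retains SREBPs and activates LXR, had 32.7 and 18.9 FPKM in Tfam cKO, against 15.1 and 12.3 FPKM in WT. The groups did not overlap, Tfam cKO 1 lay far above the other 3 libraries, and the change did not pass over all genes (log2 fold change 0.82, SE 0.25, unadjusted p = 0.011, limma adjusted p = 0.62). It was 0.45 without Tfam cKO 1, and 1.20 without Tfam cKO 2, where it passed (limma adjusted p = 0.0086) with the lone library assumed to vary like the other group. Over the fits to all 4 libraries, the limma adjusted p ranged from 0.0046, with the replicate number as a block, to 0.86, with no filter on low genes. Macrophage markers were also highest in Tfam cKO 1, at a sum of 169 FPKM, and their part in the Ch25h level was not tested. Nceh1, which hydrolyses stored cholesteryl ester, had 33.1 and 30.4 FPKM in Tfam cKO and 27.3 and 25.4 FPKM in WT (limma adjusted p = 0.89).

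**Figure D4:**
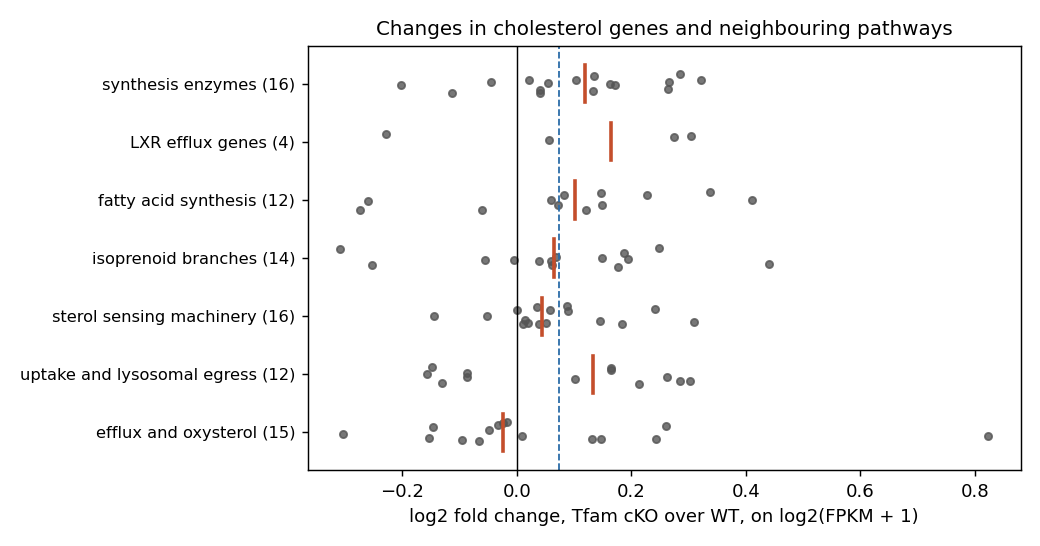
Log2 fold change of Tfam cKO over WT, 1 point per tested gene, for the synthesis enzymes, the efflux genes and 5 neighbouring lists, with each list's number of genes in brackets and its median in red. The dashed line is the median of all tested genes. The point furthest right is Ch25h at 0.82.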

How the data were processed

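Trizol RNA was converted with the NEBNext Ultra kit, per the labels' protocols. Each library has 1 deposited table of FPKM with a 95% interval, in the Cufflinks format per the file headers. The submitters' processing notes name CASAVA, Cufflinks and mm10, with no version. Aligner and annotation: not given in the sources used here. No coordinates of the tables are printed.

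FPKM of symbols listed at several loci were summed. Genes with a mean of at least 1 FPKM were tested together on log2(FPKM + 1), which understates changes of low genes, with limma 3.58.1 under R 4.3.3: genotype as the only term, a mean trend in the variances, and Benjamini-Hochberg adjustment over all 10910 genes, called below 0.05. The fit was tested on simulated data with independent noise and planted changes larger than that of any member. That test therefore does not cover changes of the members' size. Read depth is unknown. With the interval read as 2 standard errors per side, the squared ratio of an FPKM to its error served as the effective fragment number, 44.1 to 6073 for tested members. It holds no spread between libraries, and it need not follow read counts. For Apoe, at 1040 to 1471 FPKM, it was 2373 to 2574, while for Srebf2, at 55.1 to 76.6 FPKM, it was 3255 to 6073.

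With 2 libraries against 2, an exact two-sided permutation test of a single value cannot go below p = 0.333, so none is given. Medians and counts over gene groups carry no test. The members and lists were chosen with earlier results of these data known. All members are named, with full statistics for Tfam and the 6 separated members of smallest p. In each further list up to 2 separated genes of smallest p, with at least 5 FPKM in the higher group, are named. A gene that this rule selects is not reported here. Other genes named were chosen after their values were seen. Alternatives changed the scaling, filter, pseudocount, variance model, threshold, locus handling and libraries, and added the replicate number as a term. Promoter sequences are from RefSeq, GRCm38.p6. Figures were drawn with matplotlib 3.10.9.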

Additional observations from a re-analysis of the deposited data

How the results depend on the processing

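The counts of 0 called members, and the difference in balance between synthesis and efflux of 0.001, are limited by 2 libraries per group, where the fold changes of members have a median standard error of 0.19. Of 431 values of members under 15 alternatives, 385 kept their direction, 46 of 21 members changed sign and 0 became called, so the signs of small changes are not settled. The library numbers deviated together across genes (r = 0.255), but nothing in the labels says that a number marks a shared animal or day. Y-linked transcripts summed to 0 FPKM in Tfam cKO 1 and WT 1, and to 21.7 FPKM in Tfam cKO 2 and 58.8 FPKM in WT 2. An effect of the number and this difference in Y-linked RNA therefore cannot be told apart. With the replicate number as a block, 145 genes were called higher and 39 lower, 0 of them members and 1, Ch25h, in the efflux and oxysterol list (limma adjusted p = 0.0046).

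Genes called higher over all genes numbered 0 without a filter, 1 with the filter at 5 FPKM and 1 with a pseudocount of 5, and 12 to 63 with a library left out. Genes called lower numbered 1 without the mean trend, 2 with robust moderation, and 3 to 40 with a library left out, where the efflux and oxysterol list had 0 to 1 called. Members with both Tfam cKO libraries higher numbered 1 after quantile normalization (16.3% of all genes), 2 after rescaling to equal totals (14.3%), where 3 were lower (19.8%), and 10 to 19 with a library left out, where 3 to 10 were lower. The synthesis median was 0.0088 after quantile normalization, −0.00027 after rescaling, and −0.00054 to 0.22 with a library left out. The efflux median was 0.025, 0.045 and 0.073 to 0.13 under the same, and 0.27 with the filter at 5 FPKM, which drops Abca1. That filter, which also drops the synthesis enzymes Mvd, Lss and Tm7sf2, moved the difference in balance to −0.11. Leaving out Apoe moved it to 0.059, and leaving out a library to between −0.041 and 0.043.

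The medians of the further lists after quantile normalization and after rescaling were −0.12 and −0.15 for efflux and oxysterol genes, 0.016 and −0.016 for fatty acid synthesis, −0.043 and −0.070 for sterol sensing and 0.050 and 0.022 for uptake. That of isoprenoid genes was −0.044 after rescaling. The uptake median was 0.095 without a filter, 0.19 with the filter at 5 FPKM and 0.093 with a pseudocount of 5, and the isoprenoid median 0.16 with that filter. With a library left out, the medians ran from −0.074 to 0.087 for efflux and oxysterol, 0.029 to 0.14 for fatty acid synthesis, −0.026 to 0.22 for sterol sensing, 0.044 to 0.096 for uptake and 0.032 to 0.15 for isoprenoid genes.

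Log2 fold changes that changed sign after quantile normalization and after rescaling were −0.033 and −0.061 for Abcg1, −0.034 and −0.061 for Dhcr7, −0.065 and −0.079 for Ebp, −0.014 and −0.017 for Fdps, −0.056 and −0.092 for Hsd17b7, −0.057 and −0.082 for Idi1, −0.071 and −0.088 for Lpcat3, −0.040 and −0.049 for Soat1, −0.062 and −0.089 for Stard4, and −0.054 and −0.048 for Acly. That of Srebf1 was −0.0075 after rescaling. With a library left out, members that changed sign ran from −0.53 to 0.074 (Abca1), −0.028 to 0.14 (Abcg1), −0.014 to 0.36 (Cyp51), −0.053 to 0.16 (Dhcr7), −0.00062 to 0.081 (Ebp), −0.067 to 0.27 (Fdps), −0.093 to 0.14 (Hsd17b7), −0.055 to 0.13 (Idi1), −0.25 to 0.65 (Insig1), −0.042 to 0.31 (Insig2), −0.11 to 0.17 (Lpcat3), −0.23 to 0.14 (Lss), −0.057 to 0.33 (Mvd), −0.016 to 0.34 (Mvk), −0.067 to 0.32 (Nr1h2), −0.23 to 0.0049 (Pmvk), −0.067 to 0.32 (Scap), −0.14 to 0.28 (Soat1), −0.031 to 0.30 (Sqle) and −0.20 to 0.25 (Stard4). The cause of these shifts was not tested.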
